A study of Mus musculus with 6 samples.

Results

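The gene set described here was chosen by detection flags: probes for curated RefSeq transcripts that neither wild-type array, but all 4 mock and Flag arrays, read as well above background. The rule also asked for a processed signal of at least 30 on both mock arrays, and it left out Barx1, Zic1, Lhx5 and every gene named Hox or Pcdh. It found 79 genes of 18322 with such a probe, 77 of them with a symbol, and in each gene 1 probe met the rule. A total of 129 probes had the flag pattern, of which 44 lay under the signal limit and 6 probes, for 4 genes, were left out by name. Because the flags and the mock signal chose the genes, their higher values in mock and Flag cells than in wild type are a description and carry no test.

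The study asked what returning Dppa2 does in mouse embryonic stem cells that lack it. Dppa2 (also called ECAT15-2) and its partner Dppa4 (ECAT15-1) are small nuclear proteins with a SAP domain, made in pluripotent cells and early germ cells, and known for binding CG-rich promoters and helping keep developmental genes ready for use. 3 groups of 2 arrays each were compared. Wild-type cells were 15-1+/+ and 15-2+/+ and received no vector. Both knockout groups were 15-1CT/CT and 15-2-/-, where CT is a conditional targeted allele of ECAT15-1, so they differ from wild type at both loci. Mock cells carried piggyBac-CAG-IP, and Flag cells carried piggyBac-CAG-Flag15-2-IP, which makes Flag-tagged Dppa2 from the CAG promoter. Every line was derived from a blastocyst of one of 2 mothers of a mixed and partly unknown strain background, with 129Sv and C57/BL6 in it. Each of the 2 knockout lines gave 1 mock and 1 Flag array, so these arrays pair by line, and the number of lines limits the precision of every value. All cells grew on gelatin with LIF and 15% FCS for 3 days. The 2 arrays of a group came from separate lines, so p-values rest on the spread between 2 lines, pooled over the 3 groups. The wild-type pair differed least, with a median standard deviation (log2) of 0.039, against 0.15 for the mock pair and 0.17 for the Flag pair. For genes of the set the medians were 0.135, 0.18 and 0.25. The pooled spread behind the main p-values is therefore not that of the knockout lines alone.

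Each array held 45018 spots, and 55.9% to 60.4% of its probes were well above background, with no saturated spot. A level below is the log2 of the processed signal minus the array's 75th percentile, which lay between 719 and 856. The targeted gene fitted its labels in direction: the level of Dppa2 was 2.13 and 2.07 in wild type, -2.09 and -2.0 in mock cells, and -0.05 and 0.35 in Flag cells. Its probe was still well above background on both mock arrays, although the gene is labelled as knocked out there. Flag cells were 2.2 above mock cells (SE 0.16, limma adjusted p = 0.031, n = 2 a group), and both stayed under wild type. The adjusted p of this gene was 0.073 with the replicate block, 0.070 to 0.20 with any 1 array left out and 0.20 with only the 4 knockout arrays, so the call was lost there. Dppa4 was well above background on every array, at 2.96 and 2.99 in wild type, 3.47 and 3.67 in mock and 3.61 and 3.78 in Flag cells. All 7 measured pluripotency markers were well above background in every group. Of 5 germ cell markers, wild-type cells had 5 above background, mock cells 1 and Flag cells 4. The wild-type and mock arrays shared a slide and a scan, and both Flag arrays lay on the other, so slide and Flag-Dppa2 cannot be told apart in any comparison of Flag with mock.

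The label under which these genes were grouped calls them silent in wild type, and the scanner's other values went against that name. A weaker flag of the same scanner marks a signal that is positive and significant over its local background. It was set on both wild-type arrays for 78 of the 79 genes (98.7%), against 30.4% of the 8013 curated-transcript probes that were not well above background there. The exception was Ankrd33b, where it was set on 1 of the wild-type arrays. The median wild-type signal of the 79 genes was 24.1 and 26.1 on the 2 arrays, against 45.8 and 40.6 on the mock arrays and 40.8 and 39.1 on the Flag arrays. The lowest level that counted as well above background was -4.96 and -4.74 on the wild-type arrays, and it was lower on each knockout array, at -5.04 and -5.67 in mock and -5.23 and -4.97 in Flag cells. For 70 of the 79 genes, both wild-type levels were above the lowest level that passed on the second mock array. For 33 genes the first wild-type array was above the lowest passing level of the first mock array. With 1 common limit on every array the same rule gave 63 genes, 46 of them among the 79. The set is therefore called here the genes above background on knockout arrays only, and no statement is made that they were off in wild type.

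**Figure D1:**
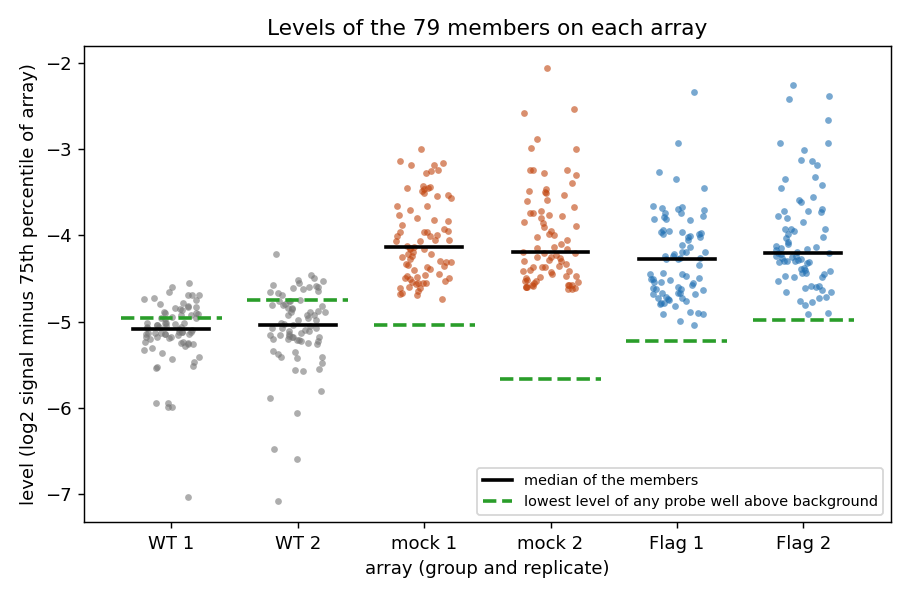
Each dot is 1 of the 79 genes on 1 array, with the level (log2 of the processed signal minus the array's 75th percentile) on the vertical axis and the 6 arrays on the horizontal axis. Black lines are medians and green dashed lines the lowest level of any probe well above background on that array. The dashed lines sit at -4.96 and -4.74 on the wild-type arrays, higher than on the others, and many wild-type dots lie just around them.

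Since a probe below background has only a bound there, each gene is given as at least so many fold above wild type. The bound sets the group's mean level against the wild-type mean of, per array, the gene's own level or the lowest passing level, whichever was higher. It is a bound on means only and makes no allowance for the spread between arrays. For Olfr821 it was 1.60, although the second mock array (-4.58) lay below the second wild-type array (-4.50). For mock over wild type the median bound was 1.64, between 1.10 for Insrr, a receptor related to the insulin receptor, and 4.32 for Ankrd33b, an ankyrin repeat protein. It reached 2-fold for 25 genes and 1.5-fold for 48, and stayed under 1.5-fold for 31. The count at 2-fold or more was 2 with normexp background correction, 36 with quantile normalization and 37 with the authors' series matrix values. The normexp setting adds an offset of 50 before the log is taken, which narrows folds between signals this low. For Flag over wild type the median bound was 1.47, with 19 genes at 2-fold or more and 35 at 1.5-fold or more. The highest Flag bound was 4.37, for the transcription factor Tal2. Insrr had no Flag bound above 1. For most of the set a difference of 2-fold from wild type was therefore not shown by these arrays.

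**Figure D2:**
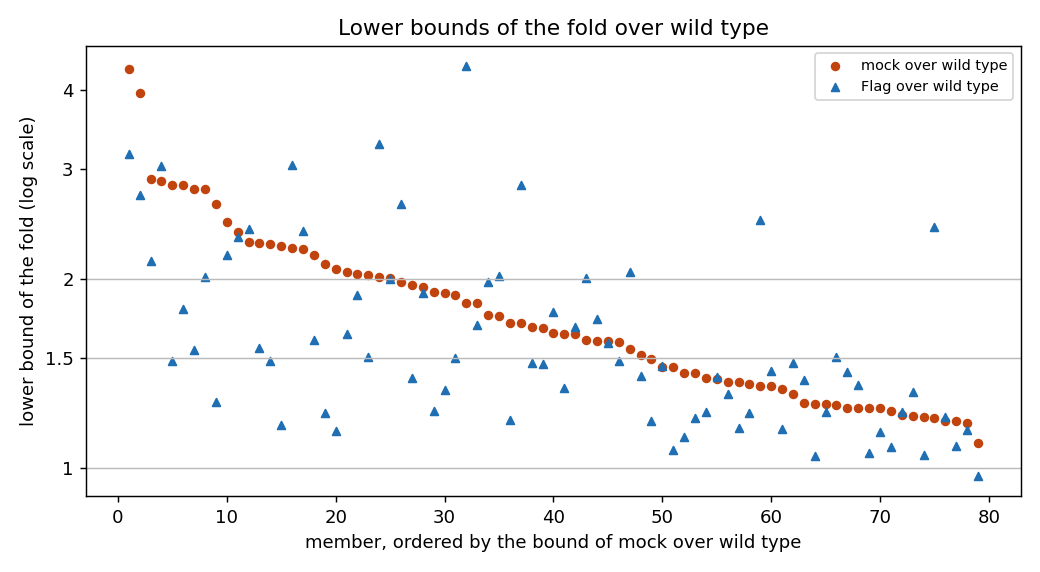
The lower bound of the fold over wild type (vertical axis, log scale) for each of the 79 genes, in the order of the mock bound (horizontal axis). Orange dots are mock and blue triangles Flag, each the mean of 2 arrays, and grey lines mark 1, 1.5 and 2-fold. The mock bounds run from 4.32 down to 1.10, with 25 at or above 2-fold, and the Flag triangles scatter on both sides of the mock dots.

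Promoter windows of the members differed in their CG content, and 4 are printed here to show the range. CG pairs are where DNA methylation is placed, and stretches dense in them, called CpG islands, mark many promoters of developmental regulators. Each sequence runs 5′ to 3′ on the gene's strand, from 250 bases before to 50 bases after the RefSeq start in build GRCm38.p6, with every CG pair in capitals. Isl1 is shown because it had the largest Flag minus mock difference below 0 among the transcription factors, Ankrd33b and Ajap1 because they had the highest mock bounds, and Olfr821 as an odorant receptor. They lie at chr13:116309639-116309938 on the minus strand for Isl1, chr15:31367710-31368009 on the minus strand for Ankrd33b, chr4:153482781-153483080 on the minus strand for Ajap1 and chr10:130033378-130033677 on the plus strand for Olfr821.
Isl1: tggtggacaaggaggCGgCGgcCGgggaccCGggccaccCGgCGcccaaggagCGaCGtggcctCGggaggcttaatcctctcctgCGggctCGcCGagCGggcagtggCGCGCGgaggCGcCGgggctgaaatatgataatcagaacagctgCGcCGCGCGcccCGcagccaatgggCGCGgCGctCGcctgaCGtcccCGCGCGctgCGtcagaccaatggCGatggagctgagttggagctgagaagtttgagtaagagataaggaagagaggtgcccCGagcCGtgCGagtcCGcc
Ankrd33b: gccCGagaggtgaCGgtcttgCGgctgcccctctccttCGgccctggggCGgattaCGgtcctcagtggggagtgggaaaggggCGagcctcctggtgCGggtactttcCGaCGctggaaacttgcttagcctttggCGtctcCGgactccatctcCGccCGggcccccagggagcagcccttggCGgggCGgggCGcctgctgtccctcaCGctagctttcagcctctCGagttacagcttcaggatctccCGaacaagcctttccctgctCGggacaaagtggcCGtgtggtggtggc
Ajap1: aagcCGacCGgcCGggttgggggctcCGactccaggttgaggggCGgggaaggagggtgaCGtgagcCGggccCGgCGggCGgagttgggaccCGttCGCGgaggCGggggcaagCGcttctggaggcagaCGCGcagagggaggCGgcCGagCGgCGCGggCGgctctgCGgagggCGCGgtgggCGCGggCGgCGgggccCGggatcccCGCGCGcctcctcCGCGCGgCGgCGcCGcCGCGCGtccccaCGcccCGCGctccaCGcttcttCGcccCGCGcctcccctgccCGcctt
Olfr821: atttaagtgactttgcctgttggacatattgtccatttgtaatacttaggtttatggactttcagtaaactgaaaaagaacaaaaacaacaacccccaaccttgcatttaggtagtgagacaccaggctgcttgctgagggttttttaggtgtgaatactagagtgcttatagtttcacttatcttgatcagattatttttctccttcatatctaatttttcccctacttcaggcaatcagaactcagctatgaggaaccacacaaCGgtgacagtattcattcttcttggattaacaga
The Ajap1 window holds 51 CG pairs, Isl1 37, Ankrd33b 22 and Olfr821 1. Of the 77 named genes, 59 had a promoter in the RefSeq table, and 57.6% of these held at least 10 CG pairs, against 64.4% of 14429 genes with a probe of the same kind. All 7 transcription factors with a promoter held 16 to 37. The 7 sensory receptors held 0 to 5, and the 7 immune and secreted genes 1 to 8. In the Olfr821 window the RefSeq start falls on an ATG, the codon where a protein begins. That window may therefore lie away from the promoter, and its count is not directly comparable with the others. The motif TATAAA, searched on both strands, was found in 15.3% of the members' windows and in 12% of all. These counts describe the windows and say nothing about which factor bound there.

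Transcription factors formed a group of 11, placed together, like every group below, from known roles after the members had been seen. Of these, 6 are developmental regulators of homeobox, GATA, HMG or caudal type. Their median mock bound was 1.84-fold, 5 of the 11 reached 2-fold, and the median Flag minus mock difference was -0.04. Isl1, a LIM-homeodomain factor of motor neurons and heart progenitors, was the best measured member, with 10 spots on each array. Its mean signal was 24.4 and 24.5 in wild type, 73.0 and 78.6 in mock, and 33.9 and 43.9 in Flag cells. Single spots were well above background in 3 and 1 of 10 cases on the wild-type arrays, and in 10 of 10 on each of the other arrays. Isl1 was at least 2.83-fold above wild type in mock and at least 1.48-fold in Flag cells. The Flag arrays lay between the other groups without overlap. The Flag minus mock difference was -0.93 (SE 0.21, limma adjusted p = 0.20, n = 2 a group), which did not pass the test.

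Cdx1, a caudal-type homeobox factor of the posterior axis and the intestine, had the same order of groups. Its signals were 25.3 and 23.1 in wild type, 74.2 and 77.1 in mock, and 57.8 and 37.6 in Flag cells, with no overlap between groups. The bound was 2.82-fold in mock and 1.79-fold in Flag cells, and Flag minus mock was -0.66 (SE 0.20, limma adjusted p = 0.32), which did not pass. Gata4, a zinc finger factor of heart and endoderm, read 28.3 and 23.7 in wild type, 84.6 and 51.8 in mock, and 55.7 and 71.7 in Flag cells. There the mock and Flag arrays overlapped, the bounds were 2.38 and 2.34-fold, and the difference was -0.03 (SE 0.29). The opposite signs in the 2 lines, -0.57 and 0.52, gave that mean. The other Gata4 probe was well above background on no array.

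The other developmental factors were close to the limit or uneven between lines. Emx2, a homeobox factor of the dorsal forebrain, read 25.1 and 9.66 in wild type, 89.0 and 34.1 in mock, and 32.7 and 55.4 in Flag cells, so the lines ran in opposite directions (-1.41 and 0.75). The other Emx2 probe was also well above background on no array. Sox1, an early neural HMG-box factor, read 24.9 and 18.1 in wild type, 39.5 and 33.5 in mock, and 29.3 and 34.6 in Flag cells. Dlx5, a homeobox factor of forebrain interneurons and facial skeleton, read 22.3 and 19.3, then 37.1 and 30.9, then 31.1 and 33.0. The mock bounds of Sox1 and Dlx5 were 1.36 and 1.26-fold. In both genes the mock and Flag arrays overlapped.

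2 transcription factors had higher values with Flag-Dppa2 in both lines and arrays that did not overlap. Tal2, a basic helix-loop-helix factor of the midbrain, read 20.4 and 21.0 in wild type, 45.2 and 53.4 in mock, and 156 and 82.7 in Flag cells. Its difference of 1.25 (SE 0.30, limma adjusted p = 0.22) was the highest of the set and did not pass. Zfp467, a zinc finger protein, read 25.4 and 20.6, then 45.3 and 64.5, then 82.0 and 89.1, with a difference of 0.70 (SE 0.27, limma adjusted p = 0.40). The remaining 3, the zinc finger gene Zfp398, the lymphocyte factor Ikzf3 and the AP-1 subunit Fosb, had mock bounds of 1.60, 1.22 and 1.25-fold and differences of 0.33, 0.01 and -0.24. None of these passed the test. The group thus held members below, at and above their mock value in Flag cells.

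**Figure D3:**
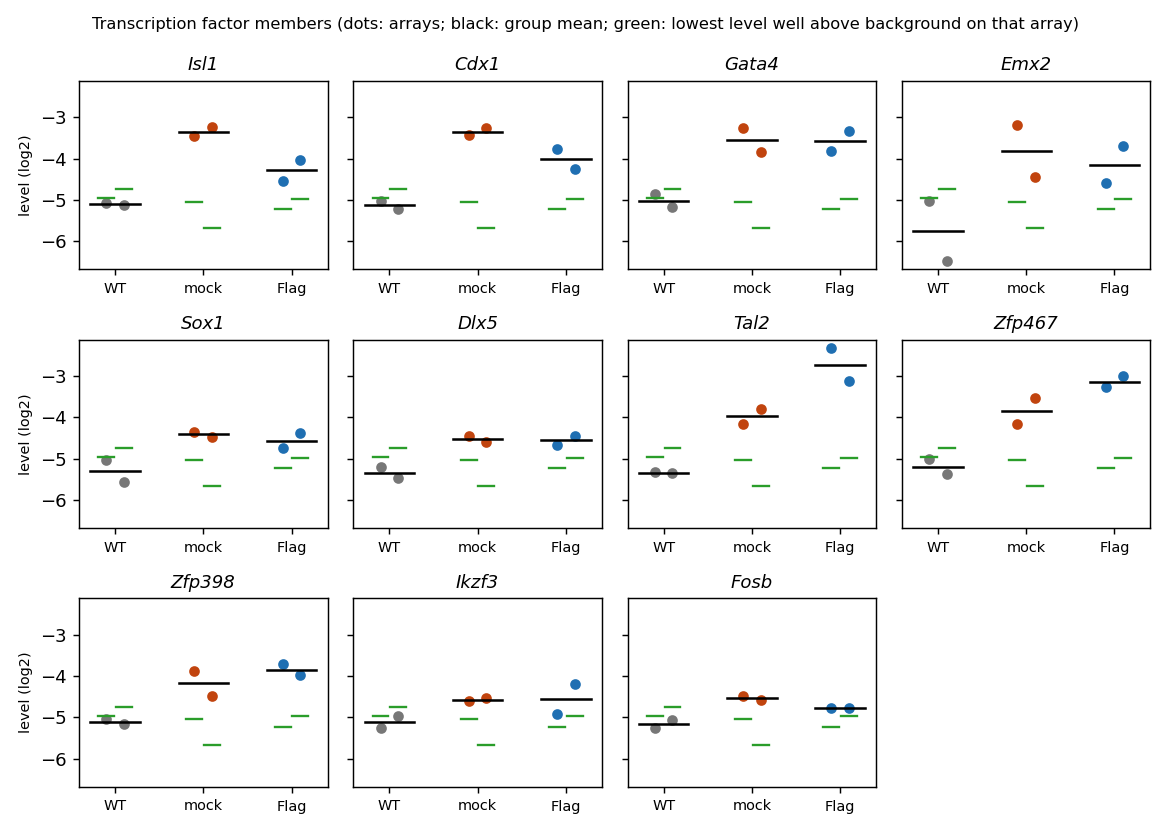
Levels (log2, vertical axis) of the 11 transcription factor members, with 1 dot per array, the 3 groups on the horizontal axis, black lines for group means and short green lines for the lowest level well above background on that array. Isl1 and Cdx1 lie lower in Flag than in mock cells without overlap, the Gata4 means differ by -0.03, and Tal2 and Zfp467 lie higher.

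Longer lists of developmental transcription factors put these members in context. Of 64 measured neural factors, 31 were below background on both wild-type arrays, 5 had the flag pattern of the set, and 4 were members (Isl1, Emx2, Sox1, Dlx5). Of 50 mesoderm factors 1 was a member (Gata4), and of 19 endoderm factors 1 (Cdx1). Over all 26951 curated-transcript probes, 8013 were below background on both wild-type arrays and 129 had the flag pattern. Members were 79 of 18322 genes. In the comparison of Flag with mock, 36 neural, 34 mesoderm and 12 endoderm factors were tested and limma called 0 in either direction, against 0.548% of all probes tested. An unadjusted p under 0.05 was reached by 8, 6 and 3 of them, against 12.8% of all probes, and the median differences were 0.08, 0.15 and 0.36, against -0.01. Among cell type markers, 7 of 9 neuron markers were well above background in wild type, as in mock, while Flag cells had 6, and Snap25 was above it on no array. The summed linear level of the neuron list, in units of the array's 75th percentile, was 20.4 to 20.5 in wild type, 14.5 to 20.6 in mock and 17.0 to 25.0 in Flag cells. The endoderm list, which holds Gata4, had 3, 5 and 5 of 7 markers above background and sums of 0.58 on both wild-type arrays, 0.57 to 0.78 in mock and 1.10 to 1.41 in Flag cells, with Afp and Ttr above background on no array. The fibroblast list had sums of 5.94 to 6.31 in wild type, 2.2 to 2.39 in mock and 2.64 to 2.69 in Flag cells. Of 6 blood markers 1, 2 and 1, and of 7 muscle markers 3, 2 and 3, were above background on both arrays of wild type, mock and Flag. The part of such cells in the result was not tested, and fewer cells of a type cannot be told apart from less RNA per cell in bulk RNA.

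Enzymes made up 13 members and had the highest median mock bound of the groups, 2.23-fold, with 9 members at 2-fold or more. Their Flag minus mock differences ran from -0.95 to 0.11 with a median of -0.43, and 8 of 13 were lower with Flag in both lines and 1 higher in both, where over all probes the shares were 35.9% and 33.8%. The signal limit was set on the mock arrays alone, and the direction of the whole set's median turned when it was set on the Flag arrays. None was called, and the lowest adjusted p was 0.35. Nudt12, a hydrolase of NADH and NADPH, read 18.9 and 22.4 in wild type, 63.9 and 93.5 in mock, and 57.0 and 54.5 in Flag cells. B3gnt9, a glycosyltransferase, read 22.6 and 28.3, then 83.3 and 66.6, then 59.1 and 46.5. In both genes the Flag arrays lay between wild type and mock with no overlap. Their differences were -0.43 (SE 0.25) and -0.47 (SE 0.16). Another Nudt12 probe had levels of -3.48 and -6.02 in wild type, -4.42 and -3.92 in mock, and -4.85 and -4.79 in Flag cells.

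Steroid and detoxifying enzymes were part of this group. Cyp11a1, which makes pregnenolone from cholesterol, read 27.2 and 15.3 in wild type, 88.6 and 43.3 in mock, and 56.1 and 27.4 in Flag cells. The first line was higher than the second in both groups, and Flag minus mock was -0.63 and -0.61 in the 2 lines. Akr1c21, a hydroxysteroid dehydrogenase, read 17.7 and 25.0, then 61.6 and 61.3, then 72.0 and 54.4, with a difference of 0.07. Gstp3, a glutathione transferase, read 27.1 and 31.6, then 43.9 and 75.5, then 28.5 and 36.7, with a difference of -0.79 (SE 0.36). Fkbp14, a prolyl isomerase of the endoplasmic reticulum, read 12.9 and 20.1, then 63.8 and 58.6, then 43.1 and 38.0, with a difference of -0.55 (SE 0.21). Wwox, an oxidoreductase with WW domains, read 18.4 and 23.3, then 36.2 and 101, then 23.9 and 38.8, with a difference of -0.95 (SE 0.62). The Fkbp14 and Gstp3 arrays did not overlap between mock and Flag, while those of Wwox did. Wwox had 2 other probes, both well above background on every array. Their mean levels in wild type, mock and Flag cells were -2.17, -2.46 and -2.56 for one, and -3.74, -2.68 and -3.06 for the other.

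Genes of neurons, synapses and cell contacts numbered 11, with a median mock bound of 1.70-fold and 3 members at 2-fold or more. Ajap1, a membrane protein of adherens junctions, read 23.1 and 25.8 in wild type, 90.2 and 125 in mock, and 61.4 and 81.7 in Flag cells. Its bound was 3.96-fold in mock and 2.72-fold in Flag cells, and the difference was -0.54 in the mean (SE 0.28), -0.52 in one line and -0.56 in the other. Kirrel2, an immunoglobulin-type adhesion molecule, read 25.4 and 37.1, then 69.3 and 93.3, then 51.0 and 36.6, a difference of -0.86 (SE 0.28, limma adjusted p = 0.34). Gdf7, a BMP-type ligand of the roof plate, read 21.8 and 31.0, then 57.1 and 44.9, then 38.8 and 39.2. On the level scale mock and Flag did not overlap in Kirrel2 and Gdf7. In Ajap1 the first mock array (-3.16) lay just below the second Flag array (-3.14), so the groups overlapped, although each line was lower with Flag.

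Within the same group some members turned on 1 array. Atp6v1g2, a neuronal subunit of the proton pump, read 101 and 30.7 in mock and 30.01 and 29.7 in Flag cells, so the difference of -0.86 came from 1 mock array. Celf3, a neural splicing factor, read 32.2 and 40.6 in mock and 103 and 40.6 in Flag cells, and its difference of 0.88 came from the first line (1.71 against 0.05). The neuronal adaptors Shc2 and Shc3, the presynaptic protein Prrt2, the scaffold Mpp2 and the syntaxin Stx3 had mock bounds of 1.68, 1.35, 1.70, 1.23 and 1.19-fold. None of the 11 passed the test.

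Sensory receptors made up 7 members: the odorant receptors Olfr821, Olfr661, Olfr441 and Olfr1170, the vomeronasal genes Vmn1r47 and Vmn1r-ps103, and the taste receptor subunit Tas1r3. By name such genes were 9.09% of the named members and 5.77% of all named genes on the array. Their mock bounds were 1.18 to 1.75-fold, with none at 2-fold. Olfr821 read 23.4 and 38.0 in wild type, 69.6 and 31.2 in mock, and 40.9 and 58.7 in Flag cells. Mock overlapped both Flag and wild type. Olfr661, which lay nearest to the signal limit, read 23.3 and 24.1, then 49.997 and 30.2, then 26.2 and 29.5. Odorant receptor genes belong to large families of close copies, so a probe may read more than 1 of them. A class of transcription factors and chromatin proteins, also matched by name, was 7.79% of the named members and 2.83% of all named genes. It held 6 members: Cdx1, Dlx5, Gata4, Sox1, Zfp398 and Zfp467. Isl1, Emx2, Tal2, Ikzf3 and Fosb, grouped above as transcription factors, were not matched by name. The rule also kept genes such as those named Hox out of the members, so no enrichment is read from these shares.

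Genes of general cell machinery and signalling were the largest group, with 18 members, a median mock bound of 1.5-fold and 3 at 2-fold or more. These include the oligosaccharyltransferase subunit Rpn1, the mitochondrial cristae protein Micos10, the mechanically gated channel Piezo1, the nonsense-mediated decay factor Smg5 and the actin regulator Cyfip1. The Rpn1 probe of the set read 29.5 and 29.7 in wild type, 51.6 and 129 in mock, and 61.9 and 113 in Flag cells. Micos10 read 31.6 and 34.0, then 71.0 and 78.6, then 59.2 and 70.5. The median Flag minus mock difference of the group was -0.01, with 5 members lower in both lines and 4 higher. Ppp1r3f, a regulatory subunit of a phosphatase, was higher in both lines (0.51 and 0.32), and Map3k9, a kinase, had a difference of -0.49.

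Several of these genes were plainly detected in wild type by another probe. Of the 79 members, 43 had a single probe on the array, and 36 had others, 49 probes in all. For 27 members another probe passed the detection flag on each wild-type array, and 11 of these were among the 25 members with a bound of 2-fold or more. None of the 49 other probes had the flag pattern of the set, and 7 were above background on no array. The other Rpn1 probes had mean wild-type levels of 5.94 and 3.17, that of Micos10 4.33, Piezo1 4.38, Cyfip1 3.73 and Smg5 3.55, all far above the detection limit of the arrays. For those 27 genes the probes disagreed on whether the gene was detected in wild type.

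The 35 other probes that were above background on both wild-type arrays were described in the same way. Their level in mock exceeded wild type for 31 of 35 (88.6%), against 52.9% of 22506 probes above background in wild type, with medians of 0.45 and 0.03. Among these other probes, Ankrd33b ran from -4.26 in wild type to -1.84 in mock and -1.93 in Flag cells for one probe, while a second probe followed it in line 1 only. That one read -4.34 and -4.20 in wild type, -2.80 and -7.82 in mock, and -2.36 and -6.95 in Flag cells. For Kirrel2 the other probe read -1.32, 0.03 and -0.29, for the KRAB-box gene Krba1 1.15, 2.36 and 2.12, and for Fkbp14 -2.71, -1.55 and -2.07. Those of Atp6v1g2 (-2.84, -2.87 and -3.03) and Pomt2 (-1.24, -1.21 and -1.20 for one of 2) differed little between groups. In Flag against mock limma called 0 of the 35 (0.548% of all probes), with 2 at an unadjusted p under 0.05 (12.8% of all). Of the 35, 15 were lower in both lines (42.9%, against 35.9% of all) and 8 higher (22.9%, against 33.8%), and the median difference was -0.06.

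Immune-cell and secreted proteins numbered 7, with a median mock bound of 1.31-fold. The adaptor Dok3 had the highest, 2.19-fold, and the others, among them the lymphocyte receptor Slamf6, the plasma protein Lrg1 and the endothelial adhesion molecule Madcam1, lay between 1.20 and 1.70. Lect2, a secreted protein of the liver, read 23.0 and 29.9 in wild type, 31.4 and 33.2 in mock, and 41.9 and 94.7 in Flag cells. Its difference of 1.01 (SE 0.46, limma adjusted p = 0.48) was larger in the second line (1.56) than in the first (0.45).

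A further 12 members had other or less known functions. Ankrd33b, with the highest mock bound, read 6.26 and 6.36 in wild type, 74.9 and 179 in mock, and 50.4 and 135 in Flag cells. The mock and Flag arrays overlapped, and the difference of -0.45 (SE 0.70) was smaller than the gap between lines. Vwa5b2, a protein with a von Willebrand factor A domain, read 23.3 and 23.7, then 73.5 and 67.8, then 31.9 and 34.4. Its difference of -1.05 (SE 0.12, limma adjusted p = 0.067) was the largest below 0 and the nearest to the threshold of any member. Its other probe, above background in wild type, had mean levels of -3.49, -2.65 and -3.22 and a difference of -0.56 (adjusted p = 0.18). Ccdc13, a coiled-coil protein, read 31.8 and 46.0, then 91.7 and 49.8, then 48.8 and 36.9.

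The question of the rescue was whether Flag-Dppa2 lowered these genes in part. In limma's fit across 24828 probes, 0 of 79 members were called at an adjusted p under 0.05, and the lowest was 0.067. Over all probes 136 were called (0.548%), of which 6 were lower with Flag (0.0242%). That count fell to 4 with the replicate block, and to 0 with only the 4 knockout arrays, with the wild-type arrays averaged, or without any 1 of the wild-type or Flag arrays. It was 40 without mock replicate 1, and 51 with normexp. An unadjusted p under 0.05 was reached by 7 members (8.86%), 6 of them lower, against 12.8% of all probes. With Flag, 33 members were lower in both lines (41.8%, against 35.9% of all probes), 12 were higher in both (15.2%, against 33.8%) and 34 ran in opposite directions. Both Flag arrays lay below both mock arrays for 21 members (26.6%, against 19.2%), and above them for 6 (7.59%, against 17.6%).

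The median Flag minus mock difference was -0.13, in a range of -1.05 to 1.25, against -0.01 over all probes. The median was -0.23 in line 1, where 59 members were lower with Flag, and -0.06 in line 2, where 41 were. The median was -0.27 without the second Flag array, -0.26 with quantile normalization (-0.03 over all probes) and -0.02 with normexp background correction.

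The signal limit bears on this direction, since it was set on the mock arrays alone. With the limit of 30 moved to the Flag arrays the rule gave 71 genes, 55 of them shared, and their median was 0.07, with 21 lower in both lines. The 55 genes that met the limit in both groups had a median of -0.03. This second limit left out members by their low Flag signal, which moves the median up. The limit on mock left out genes by their low mock signal, so neither median is free of the choice. Among the 25 members with a mock bound of 2-fold or more, a set that mock values again chose, the median was -0.45 and 15 were lower in both lines against 1 higher. Among the 52 members with no other probe above background in wild type it was -0.12, with 21 lower in both lines and 8 higher. A lowering of the set as a whole by Flag-Dppa2 was therefore not shown by these arrays. The rule also kept only genes well above background on both Flag arrays. Genes that fell below it with Flag-Dppa2 could not be members, so the set cannot show such a return. Curated-transcript probes above background on the mock arrays only numbered 78. Among members lower in both lines the 5 with the lowest differences, Vwa5b2, Wwox, Isl1, Kirrel2 and Gstp3, had mock bounds of 2.12 to 2.83-fold. The difference and the bound share the same mock values, so no conclusion is drawn from this.

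**Figure D4:**
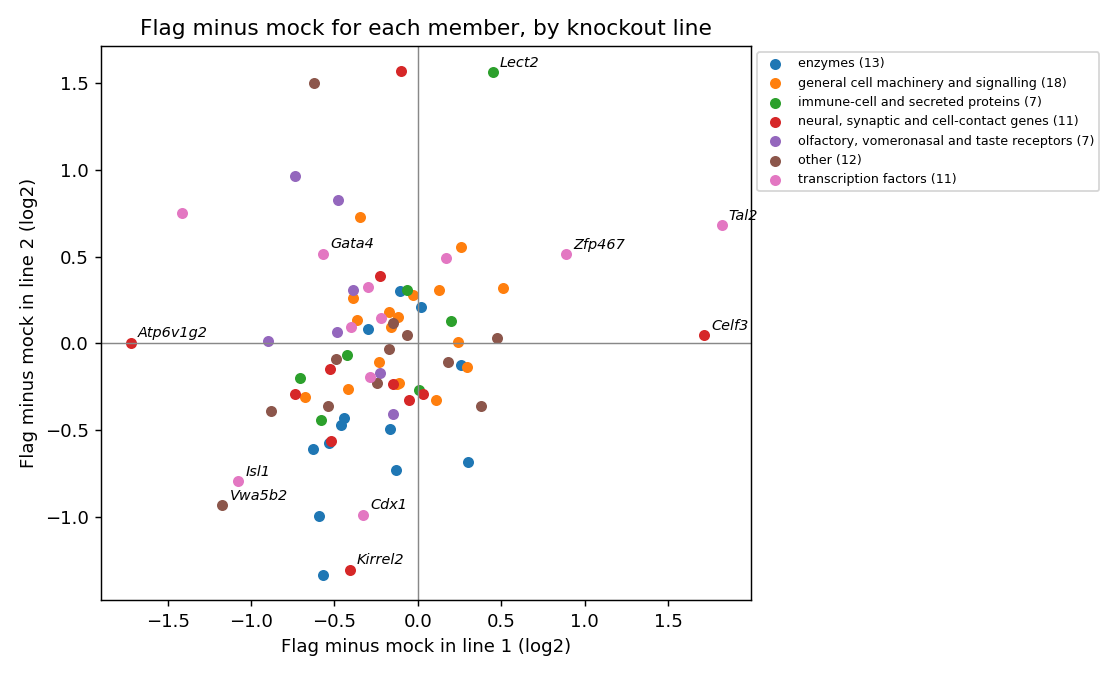
The Flag minus mock difference (log2) of each of the 79 genes in line 1 (horizontal axis) and line 2 (vertical axis), 1 dot per gene, coloured by group of function with the number of genes in brackets. The 33 genes at lower left are lower with Flag in both lines, the 12 at upper right higher in both, and Isl1, Vwa5b2, Kirrel2 and Cdx1 lie apart from Tal2, Zfp467 and Celf3.

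At the edge of the signal limit the genes just inside were Olfr661 and Fam107b, each with a lower mock signal of 30.2, and just outside were Coch (29.7) and Mdfi (29.8). Mdfi, an inhibitor of myogenic factors, read 28.2 and 21.4 in wild type, 29.8 and 41.3 in mock, and 409 and 357 in Flag cells, so the limit left out a gene whose signal was higher on both Flag arrays. The same flag pattern was also counted with the groups exchanged. Probes below background in 1 group and above it on the other 4 arrays numbered 129 for wild type, 140 for mock and 16 for Flag, and probes above it in 1 group only numbered 109, 78 and 36.

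In the RefSeq gene table (GRCm38.p6) the 77 named members lay on 19 chromosomes, with 1 to 11 on each, the most on chromosome 6. Within 10 genes of each other lay 3 pairs. The adaptor Shc2 and the adhesion molecule Madcam1 were 2 genes apart on chromosome 10. Zfp398 and Krba1 were 6 apart, and Krba1 and Zfp467 next to each other, on chromosome 6. These 3 neighbours had mock bounds of 1.60, 2.01 and 2.02-fold and Flag minus mock differences of 0.33, -0.01 and 0.70.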

How the data were processed

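RNA of 6 embryonic stem cell samples was labelled with Cy3 and hybridised to 1-colour Agilent 4 x 44K mouse arrays. Per the file headers, Feature Extraction 10.7.3.1 (protocol GE1_107_Sep09) made the deposited intensity values, the processed signal being background-subtracted. The authors' deposited value table holds log2 values from GeneSpring GX 11, per the labels, and was used as an alternative. The headers name build mm9.

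Levels are log2 of the processed signal minus each array's 75th percentile. Control spots and spots flagged as outliers were left out, spots of a probe were averaged, and a probe counted as well above background where most of its spots did. Of 41174 probes 41059 were kept. The files hold accessions and no gene names, so 26576 of 26951 probes with an NM accession were named through RefSeq, and 375 were not. limma 3.58.1 (R 4.3.3) fitted 3 groups over 6 arrays, with Benjamini-Hochberg adjustment over the 24828 probes well above background on at least 2 arrays, and was tested on simulated data. The normexp alternative used median spot signals with an offset of 50. Python 3.11.15 did the rest.

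The replicate numbers pair mock with Flag arrays of the same knockout line, per the labels. Their deviations from the group means correlated at 0.58, against -0.02 for wild type with mock and 0.01 for wild type with Flag. Members and gene lists were chosen with earlier results of these data known. The genes named are members with the 15 highest mean mock levels, the 5 lowest and 5 highest Flag minus mock differences among those of one sign in both lines, up to 3 per class of gene names, 2 on each side of the signal limit, and the targeted genes. Others were named after their values were seen. Values of some genes are not reported here.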

Additional observations from a re-analysis of the deposited data

How the results depend on the processing

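The count of members called in Flag against mock stayed 0 under the 16 alternatives run: other background correction, scaling, filters, samples in the fit, 1 probe per gene (which tested 52 members) and each replicate left out. Their lowest adjusted p ran from 0.066 to 0.32. With the replicate block, 1 of these, it was 0 (lowest adjusted p 0.14), and 4 probes of all were called in place of 136. No probe was called over the whole array without either wild-type array, without either Flag array or with only the 4 knockout arrays. A slide block could not be fitted because each slide held only one of mock and Flag. The median Flag minus mock difference reversed to 0.067 when the limit of 30 was set on the Flag arrays. It was -0.26 with quantile normalization and -0.26 with the authors' series matrix values (-0.03 over all probes in each), -0.02 with normexp, -0.50 for the 10 members at a limit of 60 and -0.45 for members with a bound of at least 2-fold. Leaving out each mock or Flag replicate gave -0.27 to -0.10, and the -0.27 came without Flag replicate 2. Members lower in both lines numbered 21 of 71 with the limit on the Flag arrays, 21 of 52 without members that another probe detected in wild type, 46 with quantile normalization or the series matrix and 29 with normexp. The share over all probes was 35.9% in the main scaling and was not counted in the other scalings, so their counts have no share beside them. The set held 121 genes with no signal limit, 10 with a limit of 60, 2 with the weaker detection flag (0 shared), 153 with every accession, 83 with no names left out and 83 with single spots. With normexp 2 members had a bound of at least 2-fold in place of 25, with quantile normalization 36 and with the series matrix 37. The settings of the limit on Flag arrays, the choices among members, single spots, and the scalings of the 2-fold count were chosen after seeing the data. The normexp setting adds its offset of 50 before the log is taken, which narrows folds between signals this low. Beyond that, the cause of these shifts was not tested. Signals near background limit every statement on wild type.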
